A study of Mus musculus with 12 samples.

Results

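The genes described here are 34 enzymes and regulators of ceramide and sphingomyelin metabolism. They are listed by gene symbol from the pathway, by a rule that uses no measured value but was written with earlier results of these data known, and 34 of 34 were found among the 56748 genes of the deposited count table. By role they are 8 genes of serine palmitoyltransferase and its regulators, 3 of the reductase and desaturase steps and 6 ceramide synthases. The others are 5 ceramidases, 4 sphingomyelinases, 4 enzymes that use ceramide and 4 genes of lysosomal glycosphingolipid breakdown. They lie on 15 chromosomes. Of the 34, 33 were kept by the filter on low counts, which left 20229 genes to be tested, and Acer1, the alkaline ceramidase known from skin, was not kept.

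Ceramide is the central lipid of sphingolipid metabolism. Serine palmitoyltransferase in the endoplasmic reticulum joins serine to a fatty acyl chain, a reductase, the ceramide synthases and a desaturase turn the product into ceramide, and ceramide is then built into sphingomyelin, glucosylceramide or ceramide-1-phosphate. Sphingomyelinases and the lysosomal hydrolases return ceramide from these lipids, and ceramidases split it into a fatty acid and sphingosine, from which the ligand of the receptor S1pr1 is made. In lung, ceramide is known for its part in the barrier of the endothelium and in emphysema, and acid sphingomyelinase for the lung disease of Niemann-Pick patients.

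RNA of whole lung was sequenced in 12 libraries, 4 in each of 3 groups of mice at 4.5 months, to ask what conditional loss of S1pr1 or of C3 does to lung metastasis of mammary tumours. S1pr1 KO mice were MMTV-Cre;S1pr1fl/fl; MMTV-PyMT, C3 KO mice were MMTV-Cre;C3Tdt:MMTV-PyMT, and WT mice were MMTV-Cre; MMTV-PyMT, so Cre and the tumour transgene were present in each group. MMTV-PyMT drives a viral oncogene in mammary epithelium, and the promoter that drives Cre is active mainly there, so RNA of whole lung comes largely from cells outside its main site. Each library carried the label of lung metastasis, and the tissue was stored in RNAlater. Whether the 4 samples of each group are 4 mice is not stated, and p-values therefore cover the spread among samples alone, part of which may be technical.

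Total counts were 32274797 to 53063470 per library, and the defining markers of lung epithelium were present in each library, at a summed level of 35232 to 52498 CPM (counts scaled to a common library total). S1pr1 itself had 132, 366, 142 and 154 CPM in S1pr1 KO libraries 1 to 4, against 295, 491, 319 and 330.0 CPM in WT. C3 was at 475, 465, 601 and 1416 CPM in C3 KO libraries 1 to 4, against 1025, 787, 903 and 799 CPM in WT. The libraries labelled S1pr1 KO 2 and C3 KO 4 thus lay within or above WT for the gene that their label says is deleted. The main counts and some of the values that these libraries move are also given without them. Marker genes of other cells also differed. Of the 12 ciliated cell markers 12 were higher in S1pr1 KO and 4 passed the test, with a sum of 563 to 765 CPM in S1pr1 KO against 293 to 490.0 CPM in WT. Cardiomyocyte markers (12 of 12 higher, 2 passed) summed to 853 to 3448 CPM in S1pr1 KO against 183 to 702 CPM in WT, and natural killer markers (12 of 12 higher, 2 passed) to 105 to 131 CPM against 35.0 to 84.2 CPM. T cell markers (14 of 14 lower, 2 passed) summed to 56.3 to 103 CPM in S1pr1 KO and 103 to 148 CPM in WT. B cell markers (12 of 12 lower, 0 passed) summed to 61.5 to 202 CPM in S1pr1 KO and 129 to 315 CPM in WT, and adipocyte markers (10 of 10 higher, 0 passed) to 80.0 to 625 CPM in S1pr1 KO and 55.6 to 144 CPM in WT. Of the 12 alveolar macrophage markers 3 were higher in S1pr1 KO and 0 passed. Their sums did not overlap, at 646 to 766 CPM in S1pr1 KO and 795 to 1025 CPM in WT. Of the 10 neutrophil markers 1 was higher in S1pr1 KO, and their sums overlapped. In C3 KO against WT no marker passed, but erythroid markers (9 of 9 higher) summed to 1281 to 24906 CPM in C3 KO and 966 to 2715 CPM in WT. C3 KO 3 alone gave the high end, and the other C3 KO libraries summed to 1281 to 4490 CPM. None of these markers was at 0 in every library of a group, and the part of these cells in the values below was not tested.

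**Figure D1:**
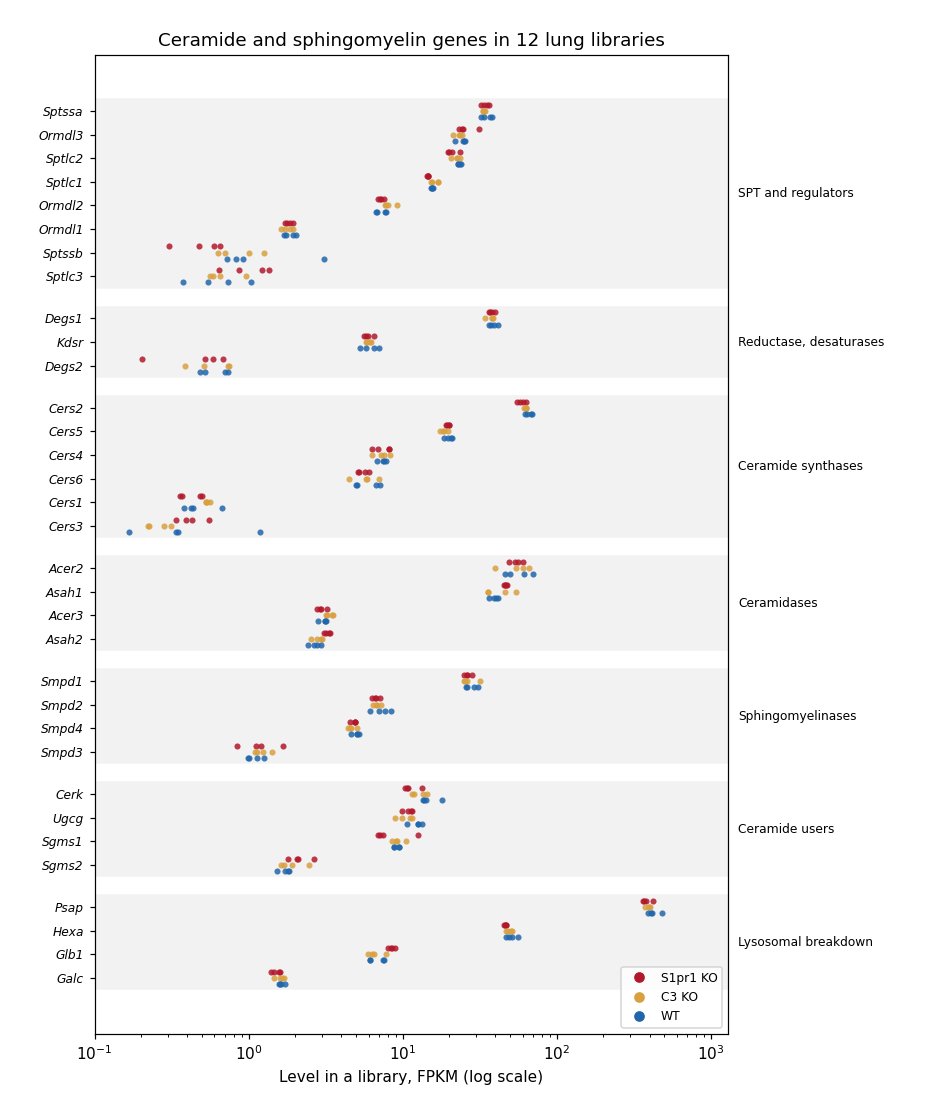
Level of each of the 33 kept genes in each of the 12 libraries, in FPKM (fragments per kilobase of gene length, scaled to library size) on a log scale, grouped by role, with 4 points each for S1pr1 KO, C3 KO and WT. Psap stands far above the others, and the 3 groups lie on top of one another for most genes, while the genes under 1 FPKM scatter most.

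Lung expressed nearly the whole pathway, at mean levels from 0.399 FPKM for Cers3 to 399 FPKM for Psap among the kept genes. By the deposited FPKM, a scale per gene length, 14 genes had a mean over 10 FPKM across the 12 libraries, 14 lay from 1 to 10 FPKM and 6 lay under 1 FPKM. Psap, whose product is cut into the saposins that present lipids to lysosomal hydrolases, was first at 399 ± 31.9 FPKM (SD, n = 12). It was followed by Cers2, the synthase of very long chain ceramides, at 62.5 ± 3.84 FPKM, and Acer2, the alkaline ceramidase of the Golgi, at 55.6 ± 8.77 FPKM. Next came Hexa, the alpha subunit of beta-hexosaminidase (48.7 ± 3.04 FPKM), Asah1, the acid ceramidase of lysosomes (42.9 ± 5.70 FPKM), and Degs1, the main dihydroceramide desaturase (37.9 ± 1.85 FPKM). Cers2, Acer2, Hexa, Asah1 and Degs1 each differed from the next gene in this order by less than the sum of their SDs, so their order is not settled. The same held for 24 of the 33 pairs of neighbours in the whole order, and 9 pairs stood in the same order in each of the 12 libraries.

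The low end held the members known from other organs. Cers3, the ceramide synthase of skin and testis, was at 0.399 ± 0.266 FPKM, Cers1, the synthase of neurons and skeletal muscle, at 0.480 ± 0.0920 FPKM, and Degs2, the desaturase and hydroxylase of skin and gut, at 0.568 ± 0.165 FPKM (SD, n = 12 each). Sptlc3 was at 0.794 ± 0.295 FPKM and Sptssb at 0.932 ± 0.725 FPKM. Acer1 had reads in 1 library, WT 2, with 19 counts, and 0 counts in each of the other libraries. The 28 genes at 1 FPKM or more varied little between the 12 libraries, with a coefficient of variation of 4.94% (Degs1) to 17.8% (Smpd3) of their CPM. The 5 kept genes under 1 FPKM had coefficients of 19.0% (Cers1) to 77.6% (Sptssb).

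Within families of alternative enzymes 1 gene mostly held the majority of the transcripts. Cers2 made up 65.2% ± 1.67 of the summed FPKM of the 6 ceramide synthases (SD, n = 12), Cers5 20.2% ± 1.16, Cers4 7.69% ± 0.721 and Cers6 6% ± 0.85. Cers5 and Cers6 make ceramides of palmitic acid, and Cers4 prefers longer saturated chains. The share of Cers2 was 63.9% ± 1.89 in S1pr1 KO, 66.0% ± 0.742 in C3 KO and 65.7% ± 1.72 in WT (SD, n = 4 each), and these ranges overlapped. Sptlc2 held 96.5% ± 1.35 of the sum with its alternative Sptlc3, Sptssa 97.4% ± 2.06 of the sum with Sptssb, Degs1 98.5% ± 0.448 of the sum with Degs2, and Sgms1 82.1% ± 3.10 of the sum with Sgms2. Of the 3 ORMDL genes, Ormdl3 held 72.1% ± 2.67, Ormdl2 22.5% ± 2.43 and Ormdl1 5.42% ± 0.418. The ceramidases were shared between Acer2 with 53% ± 6.1 and Asah1 with 41.1% ± 5.87, and of the sphingomyelinases Smpd1 held 67.7% ± 1.41.

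**Figure D2:**
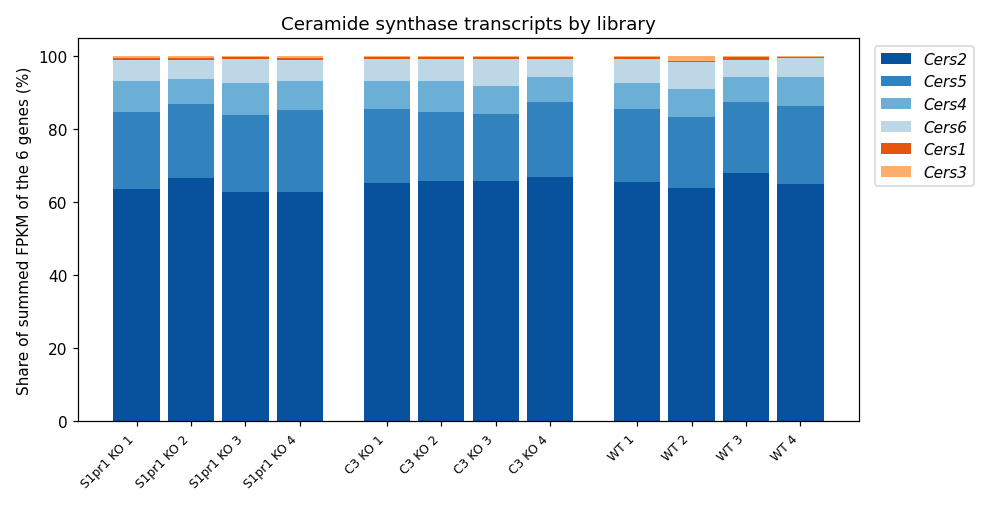
Share of each of the 6 ceramide synthase genes in their summed FPKM, in percent, for each of the 12 libraries, with S1pr1 KO, C3 KO and WT as 3 blocks of 4 bars. Cers2 takes 62.7% to 68.1% in each library, and Cers1 and Cers3 are thin bands at the top.

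None of the 33 tested genes passed in S1pr1 KO against WT at an edgeR adjusted p under 0.05, where 1.35% of all genes did. That share rested on single libraries, at 0.00972% of all genes without S1pr1 KO 4 and 0.0242% without WT 4, and it was 2.77% once the library labelled C3 KO 4 was left out. At an unadjusted p under 0.05 there were 8 of 33 genes, against 18.0% of all genes, of which 3 were higher in S1pr1 KO (9.94% of all genes) and 5 lower (8.11% of all genes). The libraries of the 2 groups did not overlap for 6 of 33 genes, against 11.3% of all genes. The log2 fold change was above 0 for 7 of 33 genes, against 49.8% of all genes (10 of 33 against 53.03% under upper-quartile scaling). The median log2 fold change of the 33 genes was -0.055, against -0.0011 over all genes. Their median absolute log2 fold change was 0.13, against 0.14 over all genes. The 95% interval of the fold change lay within 2-fold either way for 29 of 33 genes (75.5% of all genes), and within 1.5-fold for 26 of 33 (55.7% of all genes). DESeq2 called 3 of the members, Sptssb, Asah2 and Cerk, and limma voom with quality weights called 3, Asah2, Cerk and Glb1, where those tools called 5.30% and 4.59% of all genes. Without the libraries labelled S1pr1 KO 2 and C3 KO 4 edgeR called 2 of the members, Cerk and Sgms1, and 2.31% of all genes. In RNA of a whole organ, fewer cells of a type and less RNA per cell cannot be told apart.

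**Figure D3:**
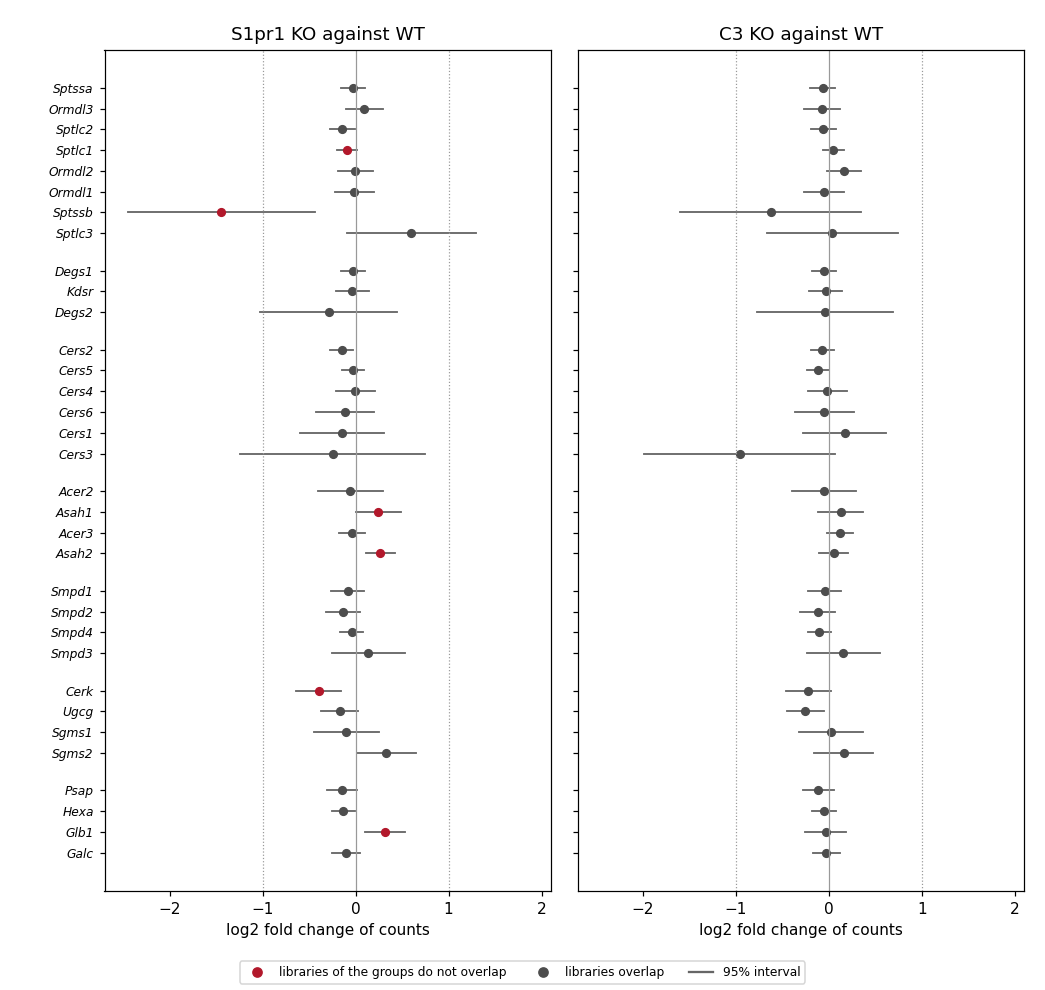
Log2 fold change with its 95% interval for each of the 33 tested genes, by role, in S1pr1 KO against WT (left) and C3 KO against WT (right). Dotted lines mark 2-fold either way, and red points mark the 6 genes whose S1pr1 KO and WT libraries do not overlap. Most intervals lie between the dotted lines, and the wide ones belong to Sptlc3, Sptssb, Degs2, Cers1 and Cers3, which are expressed at under 1 FPKM.

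Serine palmitoyltransferase showed small differences in its main subunits. Sptlc1, the subunit common to each form of the enzyme (chromosome 13 from 53486784 to 53531433), had 52.6, 51.0, 52.5 and 51.9 CPM in S1pr1 KO, 54.5, 60.7, 60.1 and 54.5 CPM in C3 KO and 54.7, 55.4, 55.5 and 56.4 CPM in WT. The S1pr1 KO libraries lay below each library of C3 KO and of WT, but by little, with a log2 fold change of -0.095 (SE 0.050 and adjusted p = 0.347 by edgeR) against WT and -0.14 (SE 0.050 and adjusted p = 0.303 by edgeR) against C3 KO. Its catalytic partner Sptlc2 had 163, 191, 161 and 170.4 CPM in S1pr1 KO, 168, 184, 183 and 191 CPM in C3 KO and 186, 194, 193 and 185 CPM in WT, and the groups overlapped. Against WT the log2 fold change in S1pr1 KO was -0.14 (SE 0.062 and adjusted p = 0.249 by edgeR), and it was -0.20 without the library labelled S1pr1 KO 2. Sptlc3, the alternative partner that accepts shorter acyl chains, had 1.84, 2.46, 3.51 and 3.86 CPM in S1pr1 KO, 1.85, 1.61, 1.67 and 2.74 CPM in C3 KO and 1.08, 2.94, 2.11 and 1.56 CPM in WT. These groups overlapped, and the S1pr1 KO value against WT was 0.60 (SE 0.32 and adjusted p = 0.352 by edgeR).

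The small subunits activate the enzyme, and Sptssb shifts it towards longer acyl chains. Sptssa, the most abundant gene of this role at 34.4 FPKM, had 51.4, 55.3, 53.9 and 49.0 CPM in S1pr1 KO, 52.1, 50.6, 50.7 and 51.1 CPM in C3 KO and 51.2, 48.9, 57.7 and 56.0 CPM in WT. Its groups overlapped, and the log2 fold changes were -0.028 in S1pr1 KO and -0.065 in C3 KO against WT. Sptssb (chromosome 3 from 69726875 to 69767273) had 1.19, 0.869, 0.558 and 1.10 CPM in S1pr1 KO, 1.16, 1.84, 1.28 and 2.30 CPM in C3 KO and 1.68, 5.65, 1.52 and 1.32 CPM in WT. WT 2 lay far above the other WT libraries, and the S1pr1 KO libraries lay below each WT library (exact two-sided permutation p = 0.0286, which is the lowest value possible for 4 against 4 libraries). Any 2 groups of 4 that do not overlap give this p, so it only restates the separation. The log2 fold change in S1pr1 KO against WT was -1.44 (SE 0.46 and adjusted p = 0.129 by edgeR), with a 95% interval of -2.45 to -0.44. Without WT 2 it was -0.69. WT 2 also had skeletal muscle markers at a summed 282 CPM, against 13.7 to 16.1 CPM in the other WT libraries, and was the single library with Acer1 reads. The part of other tissue in the value of Sptssb was not tested.

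The ORMDL proteins hold serine palmitoyltransferase back when ceramide is plentiful. Ormdl3 (24.3 FPKM) had 53.3, 68.3, 50.7 and 54.0 CPM in S1pr1 KO, 50.5, 46.6, 51.8 and 52.5 CPM in C3 KO and 47.8, 55.8, 53.8 and 54.5 CPM in WT. The library labelled S1pr1 KO 2 was the highest of the 12, and the log2 fold change of S1pr1 KO against WT was 0.094 with it and -0.0092 without it. Ormdl2 had 12.1, 12, 11.7 and 12.8 CPM in S1pr1 KO, 12.8, 13.5, 13.0 and 15.2 CPM in C3 KO and 13.0, 11.3, 11.4 and 13.0 CPM in WT. S1pr1 KO lay below C3 KO throughout, though the closest libraries of the 2 groups both round to 12.8 CPM, at -0.17 (SE 0.086 and adjusted p = 0.466 by edgeR). Ormdl2 shares positions with Dnajc14 and Sarnp on the opposite strand, and whether reads were counted by strand is not given in the sources used here. Ormdl1, the least expressed of the 3, was at 8.22 to 9.20 CPM in S1pr1 KO, 7.67 to 9.08 CPM in C3 KO and 7.96 to 9.63 CPM in WT.

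None of the 3 genes of the reductase and desaturase steps passed in any comparison. Degs1, which puts the double bond into dihydroceramide, had 95.8, 103, 99.0 and 95.3 CPM in S1pr1 KO, 98.9, 101, 98.2 and 88.9 CPM in C3 KO and 108, 101, 94.6 and 97.5 CPM in WT. The 3 groups overlapped, and the 95% interval of its log2 fold change was -0.16 to 0.10 in S1pr1 KO and -0.18 to 0.073 in C3 KO against WT. Kdsr, the reductase that acts just after serine palmitoyltransferase, was at 45.5 to 53.8 CPM in S1pr1 KO, 47.1 to 51.0 CPM in C3 KO and 43.6 to 57.0 CPM in WT. Degs2 had between 21 and 82 counts per library, the fewest in the library labelled S1pr1 KO 2, and its groups overlapped. Its log2 fold change in S1pr1 KO against WT was -0.29, and -0.47 to -0.028 on leaving out single libraries. Degs2 shares positions with Evl on the opposite strand, whose own counts came to 38.1 ± 5.63 CPM in S1pr1 KO, 46.1 ± 1.5 CPM in C3 KO and 48.8 ± 10.3 CPM in WT (SD, n = 4 each).

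All 6 ceramide synthases had a log2 fold change under 0 in S1pr1 KO against WT, between -0.25 and -0.0011, and none passed. These directions are not stable: Cers4 turned to 0.015 under upper-quartile scaling and also turned without any 1 of 5 libraries, Cers3 turned to 0.59 without WT 2, and Cers1 to 0.061 without WT 3. Cers2 (chromosome 3 from 95222102 to 95230910) had 225, 232, 213 and 204 CPM in S1pr1 KO, 233, 235, 231 and 225 CPM in C3 KO and 250.1, 227, 256 and 236 CPM in WT. The library labelled S1pr1 KO 2 lay above the lowest WT library, so the groups overlapped, and the log2 fold change against WT was -0.15 (SE 0.056 and adjusted p = 0.186 by edgeR) in S1pr1 KO and -0.070 (SE 0.056 and adjusted p = 0.697 by edgeR) in C3 KO. Cers5 had 71.1, 67.7, 69.1 and 70.8 CPM in S1pr1 KO, 69.6, 64.5, 62.1 and 65.9 CPM in C3 KO and 73.3, 66.1, 70.4 and 74.1 CPM in WT. C3 KO 1 lay above WT 2, so the groups overlapped, at -0.12 (SE 0.053 and adjusted p = 0.460 by edgeR) against WT. Cers4 and Cers6 had log2 fold changes of -0.0011 and -0.11 in S1pr1 KO and -0.015 and -0.047 in C3 KO against WT, and their groups overlapped.

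The least expressed synthases gave the widest intervals. Cers3 had 1.40, 1.27, 1.12 and 1.81 CPM in S1pr1 KO, 0.723, 0.732, 1.03 and 0.921 CPM in C3 KO and 1.10, 3.84, 1.14 and 0.549 CPM in WT, from 20 to 140 counts per library. WT 2 was again the highest, and the log2 fold change of C3 KO against WT was -0.96 (SE 0.47 and adjusted p = 0.490 by edgeR) with it and -0.12 without it. The S1pr1 KO libraries lay above each C3 KO library, at 0.71 (SE 0.47 and adjusted p = 0.580 by edgeR). Cers1 had 1.59, 1.54, 1.14 and 1.19 CPM in S1pr1 KO, 1.68, 1.79, 1.67 and 1.69 CPM in C3 KO and 1.38, 1.21, 2.14 and 1.34 CPM in WT. S1pr1 KO and C3 KO did not overlap for Cers1, at -0.32 (SE 0.21 and adjusted p = 0.573 by edgeR). Cers1 shares its transcript unit with Gdf1, which was listed at 0 counts, and overlaps Upf1 on the opposite strand.

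Of the ceramidases, Asah2 in S1pr1 KO stood apart from both other groups, and Asah1 from WT alone. Asah2, the neutral ceramidase of the plasma membrane (chromosome 19 from 31959997 to 32085611), had 39.2, 36.0, 39.5 and 37.4 CPM in S1pr1 KO, 34.8, 29.6, 32.3 and 34.4 CPM in C3 KO and 32.4, 34.6, 28.3 and 31.1 CPM in WT. Each S1pr1 KO library lay above each library of the other groups, while C3 KO and WT overlapped. Against WT the log2 fold change in S1pr1 KO was 0.27 (SE 0.073 and adjusted p = 0.0832 by edgeR), with a 95% interval of 0.11 to 0.42. The exact two-sided permutation p of 0.0286 only restates that these groups do not overlap. Asah2 was called by DESeq2 (adjusted p = 0.0361) and by limma voom (adjusted p = 0.0486) but not by edgeR. Against C3 KO the log2 fold change was 0.21 (SE 0.073 and adjusted p = 0.301 by edgeR). Asah1 had 159, 160.4, 158 and 155 CPM in S1pr1 KO, 123, 156, 121 and 184 CPM in C3 KO and 142, 122, 133 and 137 CPM in WT. The S1pr1 KO libraries were nearly equal and lay above each WT library, at 0.24 (SE 0.11 and adjusted p = 0.278 by edgeR). They overlapped C3 KO, at 0.12 (SE 0.11 and adjusted p = 0.721 by edgeR). In C3 KO the library labelled C3 KO 4 was the highest of the 12, and its alveolar macrophage markers summed to 2116 CPM against 755 to 974 CPM in the other C3 KO libraries. Their part in the Asah1 level was not tested.

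Neither Acer2 nor Acer3 passed, and their groups overlapped. Acer2, above Asah1 in FPKM in each library but the one labelled C3 KO 4, had 355, 381, 406 and 433 CPM in S1pr1 KO, 436, 475, 389 and 282 CPM in C3 KO and 335, 506, 441 and 355 CPM in WT. It spread over more than 1.5-fold within C3 KO and within WT, and its log2 fold change was -0.055 in S1pr1 KO and -0.050 in C3 KO against WT. Acer3, which acts on unsaturated long chain ceramides, had 43.0, 49.7, 44.6 and 45.6 CPM in S1pr1 KO, 48.7, 54.3, 53.3 and 49.0 CPM in C3 KO and 48.8, 47.8, 43.3 and 48.4 CPM in WT. Its log2 fold change was -0.17 (SE 0.064 and adjusted p = 0.335 by edgeR) in S1pr1 KO against C3 KO and 0.12 (SE 0.064 and adjusted p = 0.504 by edgeR) in C3 KO against WT.

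The starts of Asah2, Cerk and Glb1 are shown because these were the 3 genes of lowest p in S1pr1 KO against WT, and they serve as a view of the sequence behind these values. Each run holds 250 bases before and 50 after the transcript start, 5′ to 3′ on the gene's own strand, from RefSeq on GRCm38.p6. They lie at chr19:32103091-32103390 (minus strand), chr15:86186092-86186391 (minus strand) and chr9:114400828-114401127 (plus strand), each a window of promoter and the first bases of the transcript. Capitals mark matches, on either strand, to an AP-1 site (TGACTCA), an E-box (CACGTG), a GC box (GGGCGG) or a CCAAT box (CCAAT).
Asah2: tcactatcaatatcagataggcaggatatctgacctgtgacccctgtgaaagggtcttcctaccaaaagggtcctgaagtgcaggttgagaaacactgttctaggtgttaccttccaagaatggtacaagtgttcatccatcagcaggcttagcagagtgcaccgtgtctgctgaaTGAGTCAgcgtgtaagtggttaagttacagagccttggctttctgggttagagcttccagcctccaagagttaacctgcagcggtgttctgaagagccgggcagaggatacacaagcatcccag
Cerk: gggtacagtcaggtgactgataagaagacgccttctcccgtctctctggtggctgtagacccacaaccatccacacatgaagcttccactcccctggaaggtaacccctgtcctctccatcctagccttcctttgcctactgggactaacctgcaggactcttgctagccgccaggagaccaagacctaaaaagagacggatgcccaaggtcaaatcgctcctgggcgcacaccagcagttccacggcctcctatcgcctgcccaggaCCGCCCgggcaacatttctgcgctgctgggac
Glb1: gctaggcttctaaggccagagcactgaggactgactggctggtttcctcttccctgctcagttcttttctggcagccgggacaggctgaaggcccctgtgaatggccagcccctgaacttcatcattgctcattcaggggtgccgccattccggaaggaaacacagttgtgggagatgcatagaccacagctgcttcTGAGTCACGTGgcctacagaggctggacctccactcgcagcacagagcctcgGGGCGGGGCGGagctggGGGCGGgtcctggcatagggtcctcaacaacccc
Asah2 held an AP-1 site 74 bases before the start, and Glb1 held one 53 bases before it that overlaps an E-box at 48 bases before it, together with 3 GC boxes. Cerk held 1 GC box after its start. Among the windows of all genes the AP-1 letters stood in 5.20% of 32851, the E-box in 7.15%, the GC box in 35.7% and the CCAAT box in 37.4%. RefSeq windows were found for 32 of the 34 genes, 43 windows in all, with none for Asah1 and Smpd3. Of these windows 16.3% held the AP-1 letters, 14.0% the E-box, 65.1% the GC box and 27.9% the CCAAT box. A match is a description of these letters and does not show a bound factor.

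None of the sphingomyelinases, which free ceramide from sphingomyelin, passed, and the groups overlapped for each of the 4. Smpd1, the acid enzyme of lysosomes that is also secreted, had 87.6, 94.1, 83.4 and 87.6 CPM in S1pr1 KO, 85.5, 87.8, 83.4 and 106 CPM in C3 KO and 86.7, 87.2, 103 and 96.9 CPM in WT. The library labelled C3 KO 4 was the highest of the 12, and the log2 fold changes against WT were -0.084 in S1pr1 KO and -0.045 in C3 KO. Smpd3, the neutral enzyme linked to the release of exosomes, was at 4.43 to 8.69 CPM in S1pr1 KO, 5.78 to 7.40 CPM in C3 KO and 5.24 to 6.56 CPM in WT. The library labelled S1pr1 KO 2 held its highest value. Its log2 fold change in S1pr1 KO against WT was 0.14, and -0.055 to 0.28 on leaving out single libraries. Smpd2, another neutral enzyme, was at 28.5 to 32.1 CPM in S1pr1 KO, 28.6 to 32.1 CPM in C3 KO and 27.6 to 37.8 CPM in WT. Smpd4, a neutral enzyme of the endoplasmic reticulum and nuclear envelope, was at 41.6 to 44.7 CPM in S1pr1 KO, 39.7 to 45.5 CPM in C3 KO and 41.9 to 47.3 CPM in WT. The lowest edgeR adjusted p of these 4 genes was 0.446 in S1pr1 KO and 0.561 in C3 KO against WT.

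Among the enzymes that use ceramide, Cerk lay lower in S1pr1 KO. Cerk, the kinase that makes ceramide-1-phosphate (chromosome 15 from 86023329 to 86070342), had 51.9, 63.7, 52.3 and 49.8 CPM in S1pr1 KO, 56.9, 65.4, 69.4 and 55.0 CPM in C3 KO and 66.7, 86.9, 65.4 and 68.0 CPM in WT. The S1pr1 KO libraries lay below each WT library (exact two-sided permutation p = 0.0286, which only restates this). C3 KO lay between and overlapped both, and WT 2 stood above the other WT libraries. In S1pr1 KO against WT the log2 fold change was -0.40 (SE 0.11 and adjusted p = 0.0892 by edgeR), with a 95% interval of -0.64 to -0.16. It was -0.29 without WT 2, and -0.48 and called (edgeR, adjusted p = 0.0437) without the libraries labelled S1pr1 KO 2 and C3 KO 4. In C3 KO against WT it was -0.22 (SE 0.11 and adjusted p = 0.502 by edgeR). DESeq2 (adjusted p = 0.0297) and limma voom (adjusted p = 0.0282) called Cerk in S1pr1 KO against WT.

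The sphingomyelin synthases and Ugcg compete for the same ceramide. Sgms1, the synthase of the Golgi (chromosome 19 from 32100127 to 32367114, next to Asah2 at a distance of 14515 bases), had 75.4, 133, 78.9 and 73.7 CPM in S1pr1 KO, 111, 95.4, 96.9 and 89.8 CPM in C3 KO and 93.9, 99.9, 99.9 and 92.3 CPM in WT. Of the S1pr1 KO libraries 3 lay below each WT library and the library labelled S1pr1 KO 2 lay above each library of the series, so the groups overlapped. The log2 fold change against WT was -0.10 (SE 0.16 and adjusted p = 0.798 by edgeR), and without the libraries labelled S1pr1 KO 2 and C3 KO 4 it was -0.34 and called (edgeR adjusted p = 0.0301). Without S1pr1 KO 2 alone it was -0.34 (edgeR adjusted p = 0.0579). The library labelled S1pr1 KO 2 also stood apart in cardiomyocyte markers (3448 CPM against 853 to 1615 CPM in the other S1pr1 KO libraries), adipocyte markers (625 against 80.0 to 187 CPM) and skeletal muscle markers (196 against 18.9 to 20.1 CPM). Their part in the Sgms1 level was not tested. Sgms2, the synthase of the plasma membrane, had 11.4, 16.4, 13.0 and 13.2 CPM in S1pr1 KO, 10.2, 11.9, 15.4 and 10.5 CPM in C3 KO and 11.3, 11.4, 9.55 and 10.7 CPM in WT. Its S1pr1 KO value against WT was 0.33 (SE 0.15 and adjusted p = 0.253 by edgeR). Ugcg, the glucosylceramide synthase that opens the path to glycosphingolipids, had 60.5, 51.6, 59.8 and 56.7 CPM in S1pr1 KO, 51.6, 58.6, 59.5 and 46.3 CPM in C3 KO and 66.3, 69.4, 55.9 and 65.8 CPM in WT. WT 3 lay among the knockout libraries, and the log2 fold change against WT was -0.17 (SE 0.092 and adjusted p = 0.352 by edgeR) in S1pr1 KO and -0.25 (SE 0.092 and adjusted p = 0.368 by edgeR) in C3 KO.

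**Figure D4:**
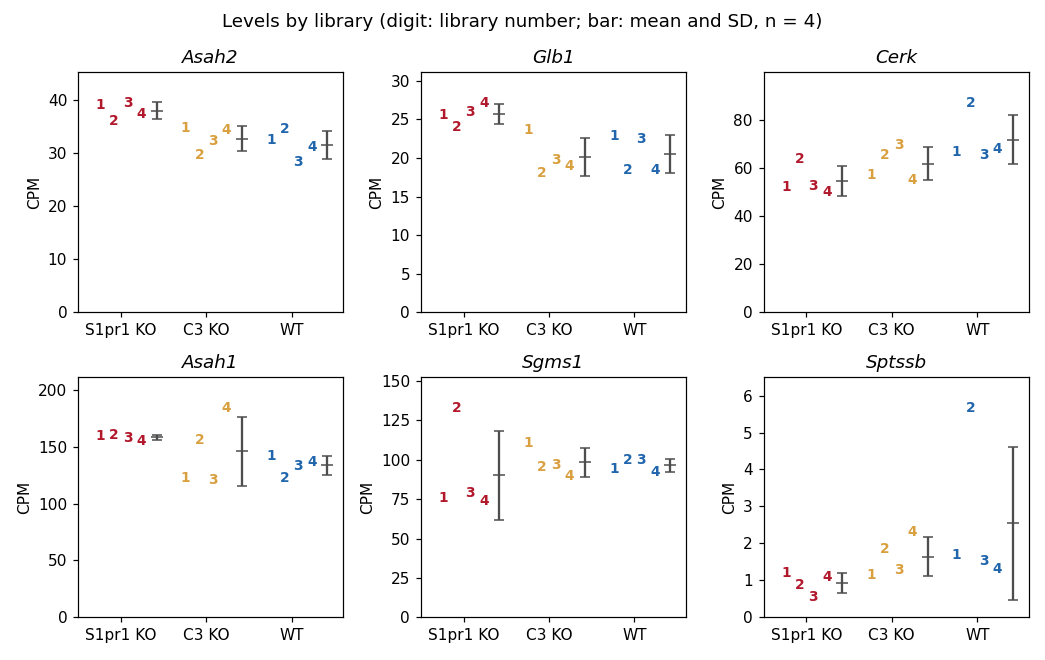
CPM of Asah2, Glb1, Cerk, Asah1, Sgms1 and Sptssb in each library of S1pr1 KO, C3 KO and WT, where a digit marks the library number and the bar gives mean and SD (n = 4). Library 2 of S1pr1 KO stands apart for Sgms1, library 2 of WT for Cerk and Sptssb, and library 4 of C3 KO for Asah1.

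In lysosomal breakdown, Glb1 lay apart from the other 3 genes. Glb1, the beta-galactosidase that trims gangliosides (chromosome 9 from 114230144 to 114303966), had 25.5, 24.0, 26.0 and 27.1 CPM in S1pr1 KO, 23.6, 18.1, 19.7 and 19.0 CPM in C3 KO and 22.9, 18.4, 22.5 and 18.5 CPM in WT. Each S1pr1 KO library lay above each library of C3 KO and of WT. In S1pr1 KO the log2 fold change was 0.32 (SE 0.10 and adjusted p = 0.123 by edgeR) against WT and 0.35 (SE 0.10 and adjusted p = 0.250 by edgeR) against C3 KO. The exact two-sided permutation p was 0.0286 in both, which only restates the separation. Glb1 overlaps Tmppe on the same strand, whose own counts came to 10.7 ± 0.776 CPM in S1pr1 KO, 12.2 ± 0.742 CPM in C3 KO and 10.1 ± 1.52 CPM in WT (SD, n = 4 each), so the division of reads between them is uncertain. Psap had 1049, 992, 1157 and 1011 CPM in S1pr1 KO, 1028, 1096, 1103 and 1085 CPM in C3 KO and 1332, 1137, 1070.2 and 1121 CPM in WT. WT 1 was the highest and the groups overlapped, at -0.15 (SE 0.076 and adjusted p = 0.334 by edgeR) in S1pr1 KO and -0.11 (SE 0.076 and adjusted p = 0.631 by edgeR) in C3 KO against WT. Hexa had 94.2, 91.0, 92.5 and 94.0 CPM in S1pr1 KO, 96.0, 93.6, 101 and 101 CPM in C3 KO and 113, 97.7, 94.1 and 102 CPM in WT. Its S1pr1 KO libraries reached just past the lowest WT library, at -0.13 (SE 0.059 and adjusted p = 0.265 by edgeR). Galc, which splits galactosylceramide of myelin, was at 21.0 to 23.9 CPM in S1pr1 KO, 21.7 to 25.3 CPM in C3 KO and 23.4 to 25.8 CPM in WT.

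In C3 KO against WT none of the 33 genes passed in edgeR, where 0.00989% of all genes did, and none was called by DESeq2 (0.713% of all genes) or by limma voom (0.104% of all genes). At an unadjusted p under 0.05 there was 1 of 33 genes, Ugcg, against 11.0% of all genes, and the groups did not overlap for 0 of 33 genes, against 6.09% of all genes. The log2 fold change was above 0 for 10 of 33 genes (49.8% of all genes), with a median of -0.047 and a median absolute value of 0.065, against -0.00099 and 0.12 over all genes. The 95% interval lay within 2-fold either way for 31 of 33 genes (78.7% of all genes), and for 28 of 33 within 1.5-fold (59.0% of all genes). Sptssb and Cers3 were the 2 whose interval reached past 2-fold, at -1.60 to 0.35 and -1.98 to 0.071 on the log2 scale. Both values rested on WT 2, and without it Sptssb turned to 0.13 and Cers3 was at -0.12. Without the library labelled C3 KO 4, 0 of 33 genes passed and 0.155% of all genes did, Ugcg was at -0.18 and Cerk at -0.16, and Asah1 came to 0.00025, against 0.13 with it. By role, the median log2 fold change lay between -0.096 for the enzymes that use ceramide and 0.089 for the ceramidases.

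S1pr1 KO and C3 KO, which were each compared with the same 4 WT libraries, were also compared with each other. None of the 33 genes passed in edgeR, where 0% of all genes did (0 of 20229, with 12% at an unadjusted p under 0.05), nor in DESeq2 (1.40% of all genes) or limma voom (0.178% of all genes). At an unadjusted p under 0.05 there were 4 of 33 genes, Glb1, Asah2, Sptlc1 and Acer3. The groups did not overlap for 6 of 33 genes, against 6.40% of all genes, namely Glb1, Asah2 and Cers3 with S1pr1 KO above C3 KO, and Sptlc1, Ormdl2 and Cers1 with S1pr1 KO below C3 KO. The log2 fold change was above 0 for 14 of 33 genes (50.7% of all genes), with a median of -0.013 against 0.0031 over all genes. For 30 of 33 genes the 95% interval lay within 2-fold either way (77.3% of all genes), and for 28 of 33 within 1.5-fold (57.5% of all genes). Without the libraries labelled S1pr1 KO 2 and C3 KO 4, none of the 33 genes passed in edgeR and 0.0147% of all genes did. On leaving out single libraries the log2 fold change lay from -0.38 to -0.037 for Sgms1 and from 0.030 to 0.24 for Asah1.

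The wider sphingolipid pathway was read from 74 further genes, of which 73 were in the table and 69, S1pr1 itself among them, were kept by the filter. In S1pr1 KO against WT 24 were higher and 45 lower. At an unadjusted p under 0.05 there were 15 of 69 genes by edgeR, against 18.0% of all genes. After adjustment 1 of 69 passed, a share near the 1.35% of all genes. This was S1pr4, a receptor for sphingosine-1-phosphate on lymphocytes, at 18.1, 17.6, 17.6 and 14.1 CPM in S1pr1 KO, 30.8, 33.2, 31.8 and 21.5 CPM in C3 KO and 28.6, 22.1, 25.9 and 26.6 CPM in WT. S1pr4 fell in S1pr1 KO, with a log2 fold change against WT of -0.62 (SE 0.13 and adjusted p = 0.0466 by edgeR). The call was lost without any 1 of 10 of the 12 libraries, with a highest edgeR adjusted p of 0.140 (without S1pr1 KO 4), and it was kept without C3 KO 3 and without the library labelled C3 KO 4. T cell and B cell markers lay lower in S1pr1 KO, as given above, and their part in the S1pr4 level was not tested. Against C3 KO the S1pr4 value was -0.80 (SE 0.13 and adjusted p = 0.0693 by edgeR).

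Next by p in S1pr1 KO against WT were Scarb2 and Sphk1. Scarb2, which carries glucocerebrosidase to lysosomes, had 365, 419, 364 and 392 CPM in S1pr1 KO, 403, 323, 368 and 434 CPM in C3 KO and 306, 295, 321 and 314 CPM in WT. Both knockout groups lay above each WT library, at 0.32 (SE 0.084 and adjusted p = 0.0797 by edgeR) in S1pr1 KO and 0.31 (SE 0.084 and adjusted p = 0.301 by edgeR) in C3 KO, and these values share the WT libraries. Sphk1, a kinase that makes sphingosine-1-phosphate, had 40.5, 48.5, 33.4 and 34.5 CPM in S1pr1 KO, 51.9, 45.4, 55.2 and 53.8 CPM in C3 KO and 46.9, 47.0, 55.8 and 58.2 CPM in WT. Its log2 fold change in S1pr1 KO was -0.40 (SE 0.12 and adjusted p = 0.103 by edgeR) against WT and -0.39 (SE 0.12 and adjusted p = 0.261 by edgeR) against C3 KO. By list, 14 further genes of lysosomal breakdown had 2 higher and 12 lower in S1pr1 KO against WT (median -0.14). The 18 genes of the sphingosine-1-phosphate branch, S1pr1 itself included, had 5 higher and 13 lower (median -0.037). The 12 genes of glycosphingolipid synthesis had 7 higher and 5 lower (median 0.045), and 25 other enzymes and carriers 10 higher and 15 lower (median -0.022). In this order of lists, 7, 5, 0 and 3 genes had an unadjusted p under 0.05 by edgeR, against 18.0% of all genes. Apart from S1pr4 none of them passed in edgeR with all 12 libraries, and S1pr1 itself did not. DESeq2 called Scarb2 and Sphk1 (adjusted p = 0.0246 and 0.0408), and so did limma voom (adjusted p = 0.0463 and 0.0256). Those tools called 5.30% and 4.59% of all genes. In edgeR, Scarb2 was also called in the fit of 2 groups (adjusted p = 0.0441) and without C3 KO 4 (adjusted p = 0.0472). Sphk1 was called in edgeR without the libraries labelled S1pr1 KO 2 and C3 KO 4 (adjusted p = 0.0355).

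In C3 KO against WT 30 of the 69 genes were higher and 39 lower, and none passed in edgeR, DESeq2 or limma voom, with 4 of 69 at an unadjusted p under 0.05, against 11.0% of all genes. After Scarb2 the lowest p belonged to Tecr, the last enzyme of the very long chain fatty acid cycle, at -0.15 (SE 0.059 and adjusted p = 0.387 by edgeR), and Tlcd3a, a relative of the ceramide synthases, at -0.45 (SE 0.19 and adjusted p = 0.421 by edgeR). WT 2 was the highest library for Tlcd3a, at 36.9 CPM, and without it the value was -0.16. In S1pr1 KO against C3 KO 23 were higher and 46 lower, and none passed in edgeR, with 12 of 69 at an unadjusted p under 0.05, against 12% of all genes. DESeq2 and limma voom each called S1pr4, where they called 1.40% and 0.178% of all genes. Abcc1, a carrier that exports sphingosine-1-phosphate, had the next lowest p among them after Sphk1, at 0.18 (SE 0.060 and adjusted p = 0.297 by edgeR).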

How the data were processed

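Whole-lung RNA of 12 libraries (3 groups of 4, from the sample titles and genotype labels) was analysed from 2 tables. One holds whole-number read counts per gene as deposited by the authors, without pooling. The other holds the FPKM values that the authors deposited for the same libraries and genes, used to compare levels between genes and in alternatives. CASAVA, STAR and the builds GRCm39 and mm39 are named, without versions, in the submitters' processing notes. How reads were counted, by strand or not and on which annotation, is not given in the sources used here. Values of overlapping genes are therefore uncertain: 20 of the 34 genes overlap another gene, 16 of them one on the opposite strand. All per-sample columns of both tables belong to these 12 libraries, and 0 other columns were left out. Coordinates are those of the count table, on GRCm39, except for the RefSeq windows.

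Counts were kept with filterByExpr, scaled by TMM and fitted with edgeR 4.0.16 in R 4.3.3 (quasi-likelihood, a mean for each of the 3 groups, 9 residual degrees of freedom). The Benjamini-Hochberg adjustment ran over 20229 genes, with calls at an adjusted p under 0.05. CPM values use the TMM-scaled totals. Standard errors were back-calculated as the absolute log2 fold change over the square root of F, and 95% intervals follow from them. Exact permutation tests used log2(CPM + 0.1), and their p-values are not adjusted for the choice of genes. Total counts of 32274797 to 53063470 per library limit precision mainly for genes under 1 FPKM. Libraries of a group differed by more than sampling noise (lowest chi-square per degree of freedom 13.4), and log2 CPM correlated at 0.963 to 0.988.

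The members and lists were chosen with earlier results of these data known. Values in each library are given for the 5 genes of lowest p in each comparison and the most abundant gene of each role, and the further genes called and the 3 of lowest p in each comparison are named. Asah1, Sptlc2, Sptlc3, Ormdl3, Cers1, Sgms1, Sgms2 and Hexa were added after their values were seen. Alternatives were RLE and upper-quartile scaling, DESeq2 1.42.0, limma 3.58.1 (voom with quality weights, and log2(FPKM + 1) and log2(FPKM + 0.1) of genes at 0.5 FPKM or more in 4 libraries), no filter, 1 CPM in 4 libraries, fits of 2 groups, leaving out each library, and leaving out the libraries labelled S1pr1 KO 2 and C3 KO 4 together. Of the further genes Gba3 is not in the table, and Enpp7, Elovl3, Abca12 and Neu4 were not kept by the filter.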

Additional observations from a re-analysis of the deposited data

Results flagged for a closer look

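Each of the 33 kept genes was screened in each group for a single library whose gap to its nearest neighbour took up most of the range of the group (over Dixon's critical ratio). Of 99 such pairs 4 stood out, where chance gives about 1 in 20. Sgms1 reached 133 CPM in the library with the label S1pr1 KO 2, against 73.7 to 78.9 CPM in the other S1pr1 KO libraries. Smpd4 was lowest in S1pr1 KO 4, at 41.6 CPM against 44.3 to 44.7 CPM, a gap that is small next to its level. In WT 2, Cerk was at 86.9 CPM against 65.4 to 68.0 CPM in the other WT libraries, and Sptssb at 5.65 CPM against 1.32 to 1.68 CPM. WT 2 held 2 of the 4 values, and none lay in the library labelled C3 KO 4.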

How the results depend on the processing

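No member passed in S1pr1 KO against WT under 19 of 22 alternatives, and 3 were called by DESeq2, 3 by limma voom and 2 without the libraries labelled S1pr1 KO 2 and C3 KO 4 (Cerk and Sgms1, with 2.31% of all genes called). Most of the 19 left out a single library. On leaving out any WT or S1pr1 KO library, 2 to 128 of all genes were called, against 274 with every library. A count of 0 members has little weight there. In the other comparisons 0 members were called under each of the 22 alternatives. Of the further genes in S1pr1 KO against WT, where 1 was called, DESeq2 called 3, limma voom 4, log2(FPKM + 1) 0, log2(FPKM + 0.1) 0, the fit of 2 groups 2, and the fit without both doubted libraries 3, with 0 to 2 on leaving out single libraries. In the same order these fits called 1223, 928, 171, 150, 385 and 473 of all genes, against 274 in the main fit. On leaving out single libraries 2 to 571 of all genes were called. Some of the counts of further genes include S1pr1 itself, whose level picked out the library labelled S1pr1 KO 2. In S1pr1 KO against C3 KO, where 0 were called, DESeq2 called 1, limma voom 1, no filter 1 and the fit without both doubted libraries 1, with 0 to 1 on leaving out single libraries. In that order these fits called 295, 36, 15 and 3 of all genes, against 0 in the main fit. Without single libraries 0 to 13 of all genes were called. The cause of these differences was not tested. Of 920 alternative values of 42 fold changes 881 kept direction and side of the threshold, and 7 reversed, all of them near 0 in S1pr1 KO against WT: Acer2 (0.0027 by limma voom, 0.064 without WT 2), Degs1 (0.0076 without WT 1), Sptssa (0.0091 without WT 3, 0.0074 without S1pr1 KO 4) and Ormdl3 (-0.0092 without the library labelled S1pr1 KO 2, -0.0090 without both doubted libraries). Most of the 42 were picked for a low p or for groups that do not overlap in these data. Leaving out a library of the group not compared also barely changes a fold change, so the count of 881 does not measure stability. On leaving out single libraries the values lay from -0.14 to 0.064 for Acer2, -0.060 to 0.0076 for Degs1, -0.068 to 0.0091 for Sptssa and -0.0092 to 0.14 for Ormdl3. Over all 33 members, leaving out some single library turned the direction of 11 in S1pr1 KO against WT, 11 in C3 KO against WT and 10 in S1pr1 KO against C3 KO, the largest of them Sptssb in C3 KO. Of the 920 values 20 crossed to an adjusted p under 0.05, and 12 calls were lost, each of S1pr4. In single groups 24 to 32 of the 34 genes kept their rank by FPKM. Depth limits the genes under 1 FPKM, such as Cers3 with 20 to 140 counts per library. No paired analysis was possible because the labels give no replicate numbers shared between groups.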

Other observations

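WT 2 stood apart in several genes of low level, some of them known from skin. Cers3 was at 3.84 CPM in WT 2, against 0.549 to 1.14 CPM in the other WT libraries, Acer1 at 0.521 CPM against 0 CPM, and Elovl4, the elongase of ultra long fatty acids, at 5.54 CPM against 0.445 to 0.586 CPM. Sptssb was at 5.65 CPM there. These genes were chosen after their values were seen, and the values rest on 1 library. Of the 33 kept members 8 had their highest level of the 12 libraries in WT 2.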
